A study of Mus musculus with 2 samples.

Results

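Mir221 and Mir222 are neighbouring microRNA genes of the X chromosome, and both were among the 2202 miRNA genes whose reads were counted in heart tissue. The pair was chosen by name and position, as the genes that encode miR-221 and miR-222, by a rule that uses no measured value, although earlier results of these data were known when it was proposed. The hearts came from 2 male B6CASTF1/J mice aged 25 days, first-generation hybrids of C57BL/6J and the wild-derived CAST strain, with no treatment given in the labels. An F1 name lists the mother's strain first, and a male has its single X chromosome from its mother, so by this convention both genes are the C57BL/6J copies, the strain of the reference genome. Both libraries form 1 group, called replicates 2 and 1 as the labels number them. Each animal has its own number in the labels, yet 1 donor identifier serves both, so the spread between the libraries may be technical.

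MicroRNAs are short RNAs cut from hairpin transcripts, and they repress messenger RNAs that pair with bases 2 to 8 of the microRNA, its seed. The hairpins of miR-221 and miR-222 are known to come from 1 shared primary transcript, and their main products carry the same seed. In blood vessels the pair is known from endothelial cells, where it represses the stem cell factor receptor Kit, and from smooth muscle cells, where it represses the cell cycle inhibitor Cdkn1b. Heart tissue holds both cell types beside heart muscle, and in such bulk RNA fewer cells of a type and less RNA per cell cannot be told apart.

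The sequences are shown because the shared seed makes the genes a family while the rest of each strand lets reads be told apart. They are the RefSeq entries for GRCm38.p6, the build also called mm10, written 5′ to 3′ with the seed in capitals in the mature strands.
miR-221-3p: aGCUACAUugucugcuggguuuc
miR-222-3p: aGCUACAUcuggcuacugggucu
miR-221-5p: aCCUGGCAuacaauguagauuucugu
In the hairpins, the mature strands held by that table are in capitals.
Mir221: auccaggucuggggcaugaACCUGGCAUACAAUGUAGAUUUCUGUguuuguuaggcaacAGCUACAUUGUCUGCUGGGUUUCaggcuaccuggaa
Mir222: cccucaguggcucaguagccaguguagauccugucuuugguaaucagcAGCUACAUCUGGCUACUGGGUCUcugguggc

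The 3p strands, each of 23 bases, were identical over the first 8 bases, and 3 of the 15 following positions matched. A run of 6 bases, CUGGGU, occurs in both, beginning at base 15 of miR-221-3p and at base 16 of miR-222-3p, so it is offset by a single base. Of 1738 mature strands in the table, 3 carried the seed GCUACAU. The third was that of Mir1928, which had 0 counts in both hearts, so among genes of that table all counts with this seed came from Mir221 and Mir222. The seed of miR-221-5p was carried by no other strand of the table. The longest run that the Mir221 hairpin shared with another of the 2202 listed hairpins, on either strand, was 13 bases (Mir7672), and for Mir222 it was 12 bases (Mir7051). Neither gene is therefore among those whose reads match a second listed miRNA gene over 20 bases.

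Mir222 lies first in the direction of transcription. In mm10 it spans 19146893 to 19146971 on the minus strand of chromosome X, and Mir221 spans 19146294 to 19146388, with 504 bases between them. GENCODE M21 annotates no other gene over the 678 bases of the pair on either strand, so both are intergenic in that annotation. The nearest gene upstream on the same strand is Gm14636, a noncoding processed transcript that ends 10009 bases before Mir222. No other miRNA gene lies within 100 kb.

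**Figure D1:**
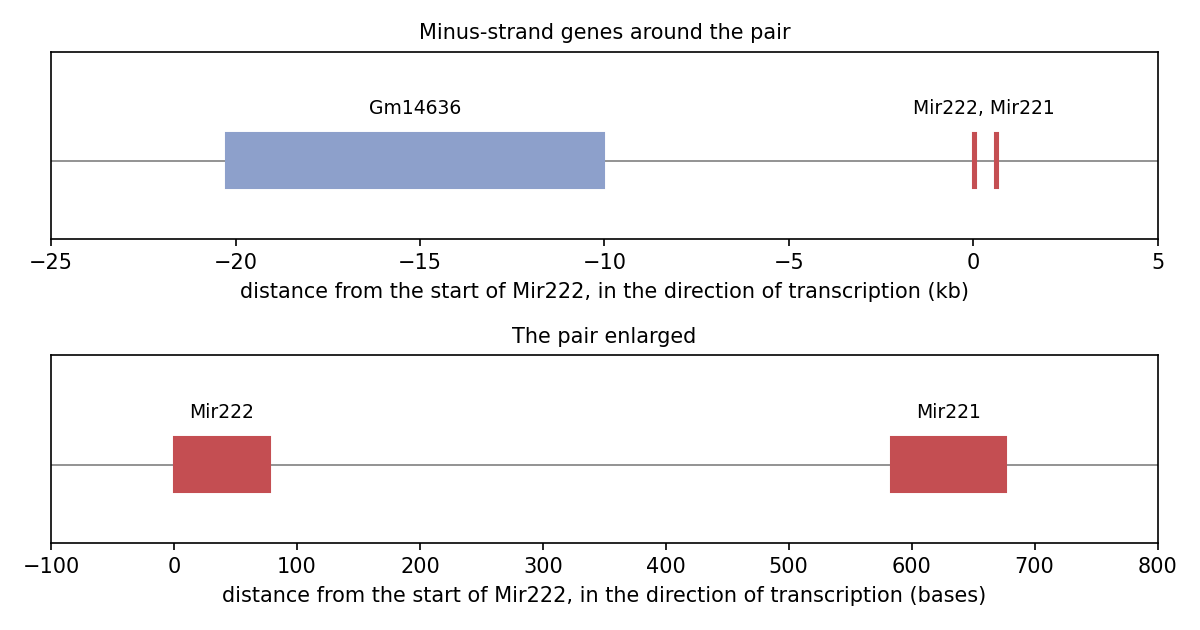
Minus-strand genes around the pair as distance from the start of Mir222 in the direction of transcription, in kb above and in bases below; boxes are annotated genes. Mir222 comes first, Mir221 follows after 504 bases, and Gm14636 ends 10009 bases upstream.

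The Mir221 hairpin has 95 bases, 47.4% G and C and a predicted folding energy of -42.8 kcal/mol. The Mir222 hairpin has 79 bases, 54.4% G and C and -40.7 kcal/mol. Per base this is -0.45 kcal/mol for Mir221 and -0.52 kcal/mol for Mir222, against a median of -0.44 kcal/mol over the 356 miRNA genes that had at least 10 counts in both hearts, called detected here. Of those 356 hairpins, 158 had a lower energy per base than Mir221 and 72 a lower one than Mir222.

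Replicate 2 held 5229819 reads assigned to a miRNA gene and replicate 1 held 4930853, which makes 1 count worth 0.191 counts per 1000000 assigned reads (CPM) in replicate 2 and 0.203 CPM in replicate 1. Where 0 counts are given, counting error alone allows a true level of up to 3 counts. This is 0.574 CPM for replicate 2 and 0.608 CPM for replicate 1. Reads placed at several loci, 37.4% of all reads in replicate 2 and 41.6% in replicate 1, are in no gene's count. The limit of 3 counts does not cover them. A read covers a whole mature strand, so counts were not divided by hairpin length, and the 2 arms of a hairpin are summed in the deposited counts. Intervals cover counting error only.

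Mir221 was a moderately abundant miRNA gene of these hearts and Mir222 a minor one. Mir221 had 12386 counts in replicate 2, or 2368 CPM (exact Poisson 95% interval 2327 to 2410), against 6584 counts in replicate 1, or 1335 CPM (1303 to 1368). Mir222 had 1185 counts in replicate 2, or 227 CPM (214 to 240), against 347 counts in replicate 1, or 70.4 CPM (63.2 to 78.2). Both genes were higher in replicate 2, and for neither did the counting intervals of the hearts overlap. The level of Mir221 averaged 1852 ± 730.5 CPM and that of Mir222 148 ± 110 CPM (SD, n = 2), so the SD was 39.4% of the mean for Mir221 and 74.4% for Mir222. Among detected genes ordered by level, Mir221 stood at rank 43 in replicate 2 and rank 63 in replicate 1. In the same order Mir222 stood at rank 116 in replicate 2 and rank 167 in replicate 1. Together the genes made up 0.259% of assigned counts in replicate 2 and 0.141% in replicate 1. No counts of either gene lay on the opposite strand in either library.

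**Figure D2:**
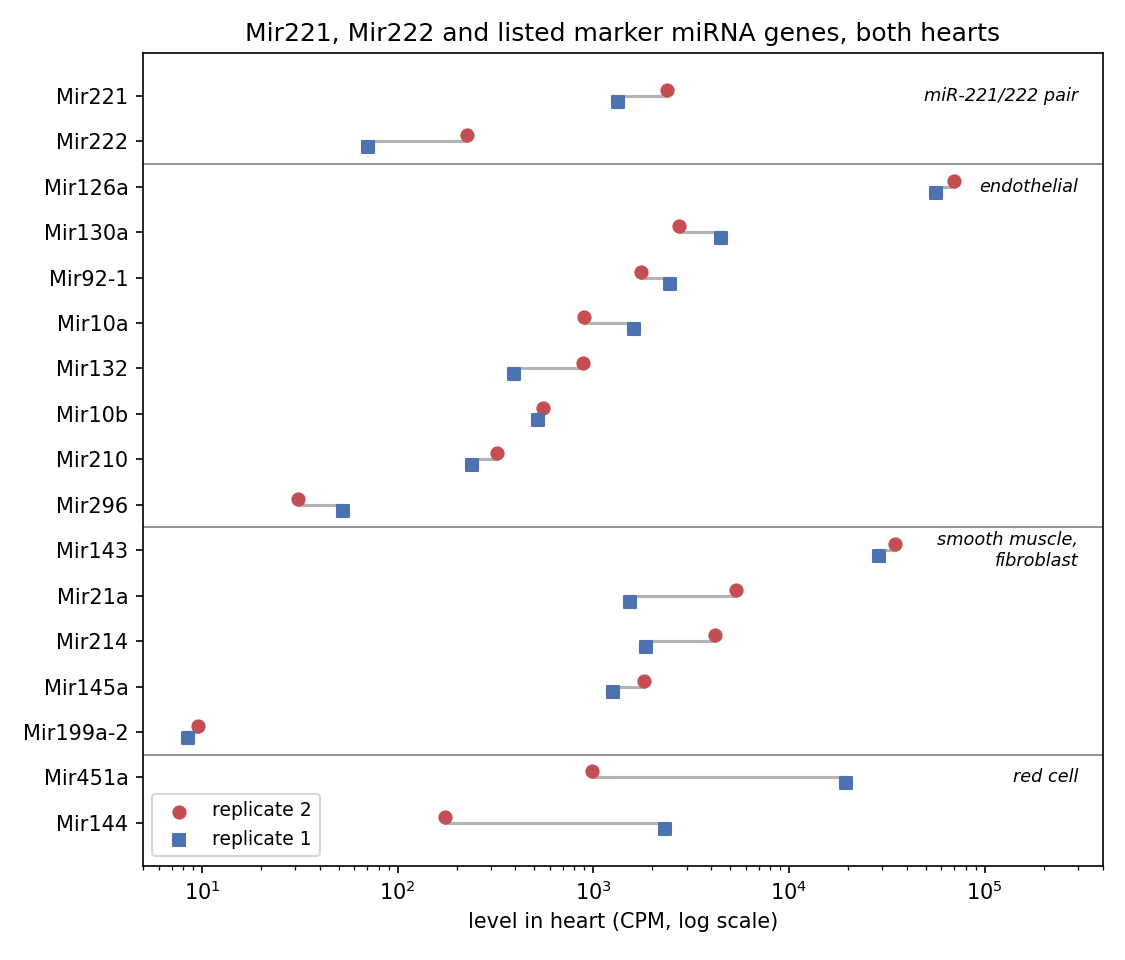
Levels in CPM, on a log axis, of Mir221, Mir222 and the detected genes of the endothelial, smooth muscle and fibroblast, and red blood cell lists, with replicate 2 as circles and replicate 1 as squares. Mir221 (2368 CPM in replicate 2, 1335 CPM in replicate 1) and Mir222 (227 CPM in replicate 2, 70.4 CPM in replicate 1) were higher in replicate 2, while Mir451a and Mir144 were far lower there.

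Mir221 counts exceeded those of its neighbour in both hearts, by unequal factors. The count ratio of Mir221 over Mir222 was 10.5 in replicate 2 (exact 95% interval 9.85 to 11.1) and 19.0 in replicate 1 (17.0 to 21.2). Mir222 thus supplied 8.73% of the pair's counts in replicate 2 (Clopper-Pearson 95% interval 8.26 to 9.22%), against 5.01% in replicate 1 (4.50 to 5.55%). The odds of Mir221 over Mir222 in replicate 2 were 0.551 times those in replicate 1 (exact 95% interval 0.486 to 0.624; two-sided Fisher's exact test, p = 5.33e-23). This ratio needs no scaling between libraries. It compares 2 libraries and not conditions, and small-RNA ligation favours some ends over others, so the ratio is one of counts and not of molecules. Over both hearts the log2 count ratio was 3.82 ± 0.61 (SD, n = 2).

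Counts of other neighbouring miRNA genes also differed, though by less in most pairs. There were 103 pairs of adjacent detected genes on the same strand within 10 kb, and the median log2 count ratio of the more over the less abundant gene, averaged over the hearts, was 2.76. Of the other 102 pairs, 30 had a larger ratio than Mir221 over Mir222. Reads placed at several loci are in no gene's count, so a ratio can be raised where the less abundant gene has a copy elsewhere. How far this raised the ratios was not tested. The 3 pairs nearest to it by this ratio were Mir191 and Mir425 (log2 ratio 3.81), Mir487b and Mir539 (3.76), and Mir409 and Mir412 (3.73). The difference of the log2 ratio between the hearts was -0.86 for Mir221 over Mir222, against a median absolute difference of 0.53 over the pairs, and 27 of the others differed by more. With at least 100 counts of each gene in both libraries, 53 pairs remained. Among these, 14 others had a larger ratio than Mir221 over Mir222, and 11 others differed by more between the hearts. Both genes of a pair moved the same way between the hearts, as Mir221 and Mir222 did, in 68 of the 103 pairs.

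**Figure D3:**
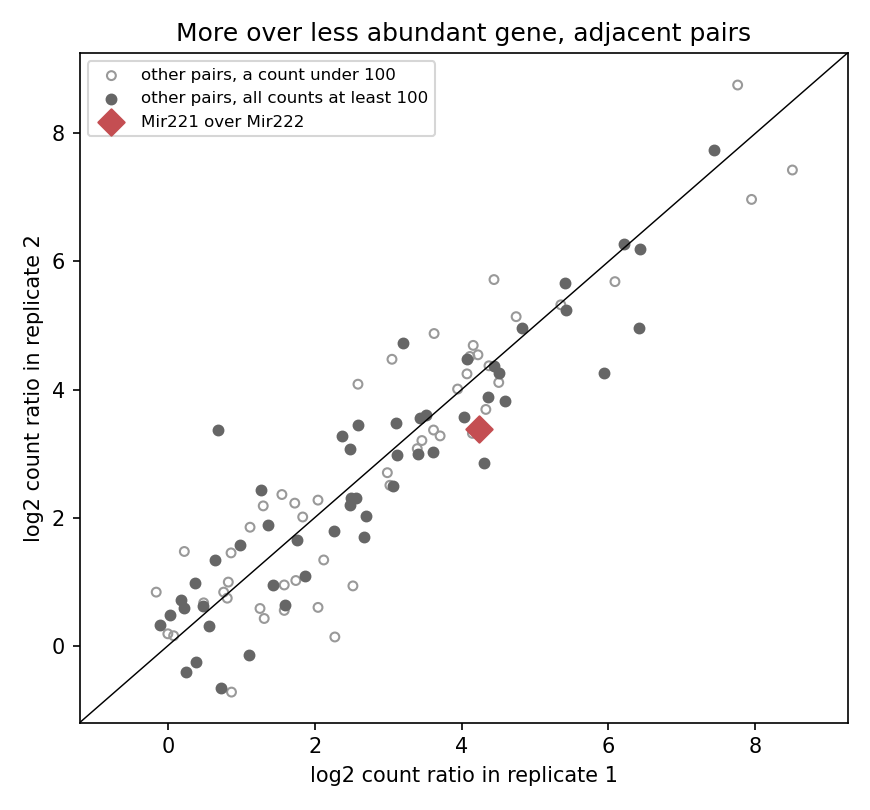
Log2 count ratio of the more over the less abundant gene in replicate 2 (vertical) and replicate 1 (horizontal) for 103 pairs of adjacent detected genes; the line marks equal ratios. Mir221 over Mir222 lies below the line, with a log2 ratio of 3.39 in replicate 2 and 4.24 in replicate 1 (0.5 counts added to each gene), inside the range of the other pairs.

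Between the hearts, Mir222 differed more than Mir221. Mir221 was 1.77-fold higher in replicate 2 (exact 95% interval 1.72 to 1.83; log2 ratio 0.83, adjusted p at most 1e-300, the smallest value kept) and Mir222 3.22-fold higher (2.85 to 3.64; log2 ratio 1.69, adjusted p = 5.23e-96), both by the exact conditional binomial test with Benjamini-Hochberg adjustment over all 356 detected genes. Both of the genes were thus called higher in replicate 2, as were 32.9% of all detected genes, while 30.6% were called lower and 63.5% in either direction. A call therefore does not set the pair apart. The test has no replicates behind it, and the log2 ratio had an SD of 0.86 over detected genes. Of the 356 genes, 90 (25.3%) had a larger absolute log2 ratio than Mir221 and 17 (4.78%) a larger one than Mir222. Of 43 other genes within 2-fold of the mean level of Mir221, 10 had a higher log2 ratio than it. Of 66 such genes around Mir222, 2 did.

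**Figure D4:**
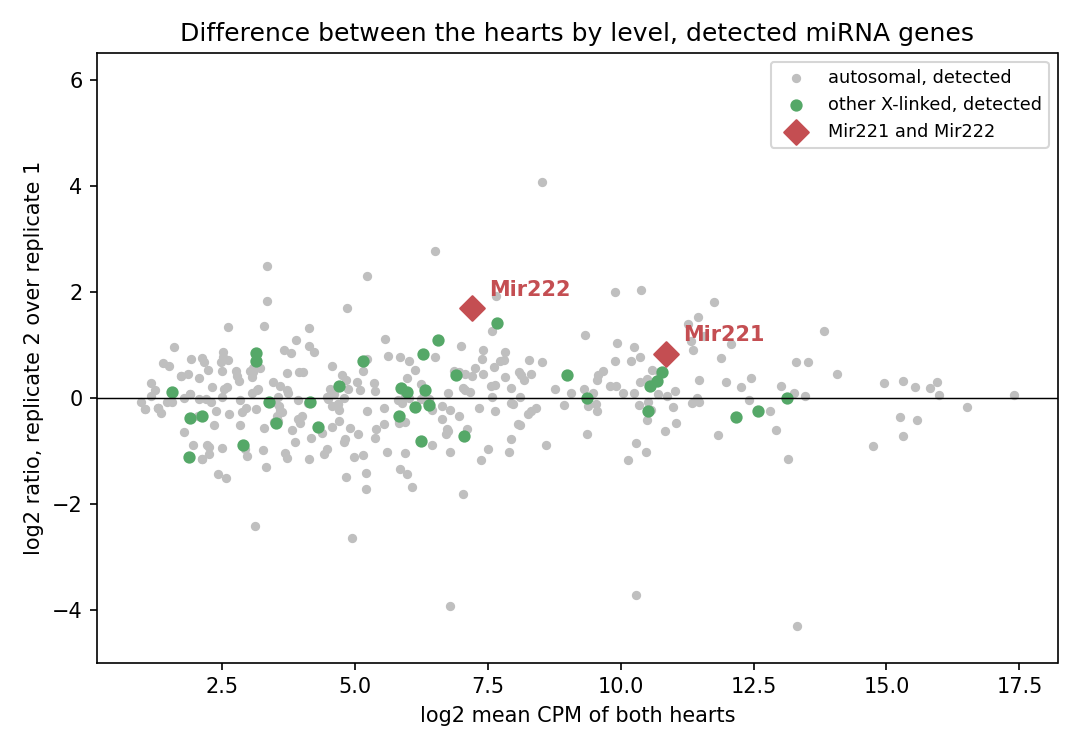
Log2 ratio of replicate 2 over replicate 1 against the log2 mean CPM for the 356 detected genes, with Mir221 and Mir222 as diamonds and other X-linked genes in green. Mir222 lies highest of the X-linked genes at 1.69, and Mir221 lies at 0.83, within the spread of genes of like level.

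The genes share their chromosome with 140 other listed miRNA genes, of which 34 were detected. Chromosome X gave 3.07% of assigned counts in replicate 2 and 3.04% in replicate 1, and the pair made up 8.46% of those X-linked counts in replicate 2 and 4.62% in replicate 1. By mean level Mir221 was the fourth of the 36 detected X-linked genes, after Mir652 at 8951 ± 4.19 CPM, Mirlet7f-2 at 6140 ± 739 CPM and Mir322 at 4606 ± 823 CPM (SD, n = 2). Mir676 followed at 1762 ± 414 CPM. Mir222 was the twelfth. Of the other 34 genes, 11 were called higher in replicate 2, 9 lower and 14 neither. Over all detected genes, 32.9% were called higher and 30.6% lower. The median log2 ratio of the 34 was -0.00089, beside 0.021 over all detected genes. None of the 34 had a higher log2 ratio than Mir222, and 3 had a higher one than Mir221. These 3, named after their values were seen, were Mir501 (1.41), Mir503 (1.09) and Mir450-2 (0.83).

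By distance of log2 CPM over the 2 libraries, the detected genes most like Mir221 were Mir676, Mir150, Mir351, Mir145a and Mir98, at 0.25 to 0.55. Mir150, a leukocyte miRNA, had 1968 CPM in replicate 2, against 1416 CPM in replicate 1, and Mir145a, a smooth muscle miRNA, 1809 CPM in replicate 2 against 1259 CPM in replicate 1. Mir676, Mir351 and Mir98 are X-linked. The genes most like Mir222 were Mir669o, Mir298, Mir125b-2, Mir338 and the X-linked Mir501, at 0.51 to 0.77. Their levels ranged from 170 to 320 CPM in replicate 2 against from 85.0 to 118 CPM in replicate 1. With only 2 libraries such likeness is mostly one of level.

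Other vascular miRNA genes did not all move with the pair. Of 9 further endothelial genes, 8 were detected, with a median log2 ratio of -0.20. Of these 8, 4 were called higher in replicate 2 and 4 lower, beside 32.9% higher and 30.6% lower over all detected genes. Mir126a, the leading endothelial miRNA, had 69422 CPM in replicate 2, against 56392 CPM in replicate 1, a log2 ratio of 0.30. Mir132, which is induced in activated endothelium, had 890.3 CPM in replicate 2 against 394 CPM in replicate 1 (log2 ratio 1.17), and Mir210, which responds to low oxygen, 322 CPM in replicate 2 against 240.1 CPM in replicate 1 (0.42). Mir10b was nearly level at a log2 ratio of 0.09. The genes called lower were Mir10a (-0.85), Mir296 (-0.77), Mir130a (-0.71) and Mir92-1 of the miR-17/92 cluster (-0.48). Mir126b, the ninth, had 3 counts in each library. The list summed to 76629 CPM in replicate 2 against 66176 CPM in replicate 1. Mir92-1 has a numbered copy, the X-linked Mir92-2, so its count and this sum lack any read placed at several loci.

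Of 6 smooth muscle and fibroblast genes, 5 were detected, 4 were called higher in replicate 2 and 0 lower by the exact binomial test, beside 32.9% higher and 30.6% lower over all detected genes. The median log2 ratio was 0.52. Mir21a, which rises in activated fibroblasts, had 5341 CPM in replicate 2 against 1540 CPM in replicate 1 (log2 ratio 1.79), and Mir214 had 4173 CPM in replicate 2 against 1868 CPM in replicate 1 (1.16). The smooth muscle genes Mir145a (0.52) and Mir143 (0.27) differed less. Mir199a-2 had 50 counts in replicate 2 and 42 in replicate 1 and was not called (adjusted p = 0.697, exact binomial test), and Mir199a-1 had 0 in both hearts. The Mir199a genes are duplicated genes of the same miRNA, so their counts lack any read placed at several loci. The sum of the list, which lacks such reads too, was 45971 CPM in replicate 2 against 33441 CPM in replicate 1.

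Whether the pair was higher in replicate 2 relative to single marker genes, in place of the library total, depended on the marker. Each of the 24 detected genes of the 5 cell type lists was used in turn. Mir221 was relatively higher in replicate 2 for 20 and lower for 4. Mir222 was higher for 23 and lower for 1. A count of lower only shows how many markers themselves had a higher ratio between the hearts. Over all detected genes, 11.0% had a higher ratio than Mir221 and 2.81% a higher one than Mir222. Most detected genes used as a marker would thus give the same direction, so these counts say nothing particular to the listed cell types. Mir221 had 34.1 counts per 1000 of Mir126a in replicate 2 against 23.7 in replicate 1, a ratio of 1.44 (exact 95% interval 1.40 to 1.49). Mir222 had 3.26 per 1000 in replicate 2 against 1.25 in replicate 1, a ratio of 2.62 (2.32 to 2.96). The direction turned for Mir221 against Mir21a (ratio 0.511), Mir208a (0.678), Mir132 (0.785) and Mir214 (0.794). These were the detected genes of the lists that were themselves more than 2-fold higher in replicate 2. For Mir222 the direction turned against Mir21a, with a ratio of 0.928 whose exact 95% interval, 0.820 to 1.05, includes 1. These ratios were computed after the values were seen.

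The 2 listed red blood cell genes, Mir451a and Mir144, were both detected and ran the other way. They summed to 1161 CPM in replicate 2 against 21812 CPM in replicate 1, and both were called lower in replicate 2 (log2 ratio -4.30 for Mir451a and -3.73 for Mir144). Mir486, also known from red blood cells and from muscle but on none of the lists, was higher in replicate 2, at 1173 CPM against 731 CPM in replicate 1 (log2 ratio 0.68). Mir3107 lies within Mir486 on the opposite strand, and the Mir486 count lacks any read placed at several loci. With Mir451a and Mir144 taken out of the total, the log2 ratio was 0.80 for Mir221 and 1.66 for Mir222. Over all detected genes, 32.9% were called higher in replicate 2 and 30.6% lower. Of 4 leukocyte genes, 2 were called higher in replicate 2, 1 lower and 1 neither. They summed to 5126 CPM in replicate 2 against 4788 CPM in replicate 1. Of 7 heart muscle genes, 5 were detected, of which Mir208a was called higher in replicate 2, Mir499 lower and 3 neither. The median log2 ratio of these 5 was -0.09. The list had sums of 6556 CPM in replicate 2 against 4531 CPM in replicate 1. Mir208a alone had 3562 CPM in replicate 2 against 1361 CPM in replicate 1. The Mir1a and Mir133a genes of that list had between 3 and 203 counts each. They are duplicated genes with the same main mature strand, so their counts and these sums lack any read placed at more than 1 locus. The part of differing cell content in the ratios of Mir221 and Mir222 was not tested.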

How the data were processed

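Small-RNA libraries (RNA below 30 nucleotides, per the labels) were made from heart tissue of 2 male mice. Age was taken as 25 days from the age label, although the sample descriptions write months. The authors deposited raw read counts per miRNA gene for build mm10 and GENCODE M21, per the text deposited with the files; the aligner and counter were not given in the sources used here. The column of the gene's own strand was used. Entries that name no gene were left out: 20.2% of reads in replicate 2 and 15.0% in replicate 1 were unmapped, 37.4% in replicate 2 and 41.6% in replicate 1 were placed at several loci, and 6.00% in replicate 2 and 6.03% in replicate 1 lay outside miRNA genes. Files hold 3 count columns, unstranded and 1 per strand.

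All 2202 identifiers matched GENCODE M21. Counts were scaled to 1000000 assigned reads, and log2 ratios use a pseudocount of 0.5 counts. Detected genes had at least 10 counts in both libraries. Each was tested between the libraries with an exact conditional binomial test (SciPy 1.17.1), two-sided, with Benjamini-Hochberg adjustment, called at 0.05; 1 group leaves edgeR no contrast to test. edgeR 4.0.16 and DESeq2 1.42.0 gave alternative scalings. Folding energies came from RNAfold 2.7.2.

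The members and lists were chosen with earlier results of these data known. Genes named are the pair, the 5 nearest to each in level over both libraries, the 5 highest X-linked genes, genes with the same seed, detected vascular genes and the 3 pairs of most similar ratio; others were named after their values were seen. Of the listed names, Mir92a-1 was matched as Mir92-1 through a synonym.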

Additional observations from a re-analysis of the deposited data

How the results depend on the processing

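The direction and call of Mir221 and Mir222 between the hearts were the same with TMM, DESeq2, all-read and unstranded totals, minimums of 1 and 100 counts, and totals without the 10 most abundant genes, and, chosen after seeing the data, without Mir451a and Mir144 or relative to Mir126a. Relative to Mir21a, also chosen then, the sign turned for both, because Mir21a itself has a log2 ratio of 1.79. Mir221 was then called lower at -0.97. Mir222, at -0.11, was not called (adjusted p = 0.227, exact binomial test). Over the settings other than Mir21a the log2 ratio ran from 0.53 to 0.83 for Mir221 and from 1.39 to 1.69 for Mir222, lowest for both relative to Mir126a. Of 594 genes with a minimum of 1 count 237 (39.9%) were called, and with a minimum of 100 counts 180 (81.1% of those tested), against 226 of 356 (63.5%). With the other settings that give a count 61.1 to 62.1% were called. Levels depend on the total. With all reads as the total Mir221 was at 680.3 CPM and Mir222 at 54.4 CPM, and without the 10 most abundant genes Mir221 was at 5560.2 and Mir222 at 444, because the denominator changed. Leaving out either library gave 1335 to 2368 CPM for Mir221, 70.4 to 226.6 CPM for Mir222 and a log2 count ratio of 3.39 to 4.25. The calls cannot be made with a library left out. With 2 libraries of 1 group, animal and library preparation cannot be told apart, and a level rests on at least 347 counts.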
